A study of Mus musculus with 16 samples.

Results

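Secondary kidney tumors, grown from kidney tumors that had been transplanted under the skin of immunodeficient mice, were compared with normal kidney. The 6 arrays, 3 of each, were chosen by their titles from a series of 16 mouse arrays, and 3 arrays of primary kidney tumors served as a second point of comparison. The tumors came from reprogrammable mice, in which doxycycline switches on introduced reprogramming factors. The primary tumors arose in mice that received doxycycline for 7 days, starting at 4 weeks of age, and were taken 7 days after it was withdrawn, and the normal kidney was of the same age. The mice had been made from an ES cell line, so that their tissues carry a cross or a mixture of the 129 and C57BL6 strains, and the tumors arose in chimeras and can also hold cells of the ICR strain. The labels used here do not give the host strain of the grafts, the time they grew, the age of the hosts or whether the arrays of a group came from separate animals. All p-values and SEs below thus rest on the scatter among arrays that share a label, some of which may be technical. This scatter is pooled over all groups of the series, so an error also carries the spread of groups outside its comparison. A graft can also hold cells of its host.

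The nephron filters blood in the glomerulus, whose podocytes hold back protein, and then recovers solutes and water along the proximal tubule, the loop of Henle, the distal tubule and the collecting duct. The proximal tubule takes back glucose, phosphate and amino acids, secretes drugs and organic ions, makes glucose and activates vitamin D. Reprogramming factors can return differentiated cells to a pluripotent state, and pluripotent cells placed under the skin form teratomas, tumors with differentiated tissue of several lineages. The 43 gene lists below cover the parts of the nephron, the lineages that teratomas can hold and the cells that surround a graft, and 699 genes in them were measured.

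Levels are log2 intensities, so that a difference of 1 is 2-fold, and each level is compared only within its own gene. The deposited values carry no detection call, so low levels may be background, which also shrinks folds measured from them. A gene was called at an adjusted p under 0.05 in limma, fitted over all 19938 genes and all 16 arrays. RNA was measured in bulk, so fewer cells of a type and less RNA per cell cannot be told apart in any result below.

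Secondary tumor 1 and normal kidney 2 stood apart from the other arrays of their groups for genes of muscle and fat. All 24 measured skeletal muscle genes were highest in secondary tumor 1 among the secondary tumors. Acta1, skeletal muscle actin, had log2 levels of 12.65, 8.24 and 8.41 in the secondary tumors, against 7.91, 7.66 and 7.77 in normal kidney. Myh1, a fast myosin heavy chain, had log2 levels of 10.92, 5.94 and 5.89 in the secondary tumors, against 5.99, 5.94 and 6.07 in normal kidney. Secondary tumors 2 and 3 lay near normal kidney in both genes. Myh1 did not pass at 1.58 ± 0.94, and was -0.09 without secondary tumor 1. All 10 adipocyte genes were also highest in secondary tumor 1, and normal kidney 2 was high as well. Adipoq, the fat cell hormone adiponectin, stood at 9.87, 5.51 and 5.54 in the secondary tumors, against 5.85, 9.98 and 5.63 in normal kidney. The groups therefore overlapped in Adipoq, with 1 high array on each side. Relative to the normal kidney mean of each gene, the skeletal muscle list had medians of 2.97, -0.14 and -0.05 in secondary tumors 1, 2 and 3. The adipocyte list had medians of 1.33, -1.53 and -1.50 in the same tumors, against -0.66, 1.32 and -0.66 in normal kidneys 1, 2 and 3. The skeletal muscle list had 3 members called higher, and this count was 4 without secondary tumor 1, 10 without secondary tumor 2, 12 without secondary tumor 3 and 1 without normal kidney 1, 2 or 3. Of the 3, Acta1 rose with an adjusted p of 0.0493, and the p was 0.0567 without secondary tumor 1 and 0.085, 0.101 and 0.0969 without normal kidney 1, 2 and 3. Where leaving out these arrays ended or made the call of a gene named below, or moved a list count by over 1.5 times, the value without 1 or both of them is given.

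**Figure D1:**
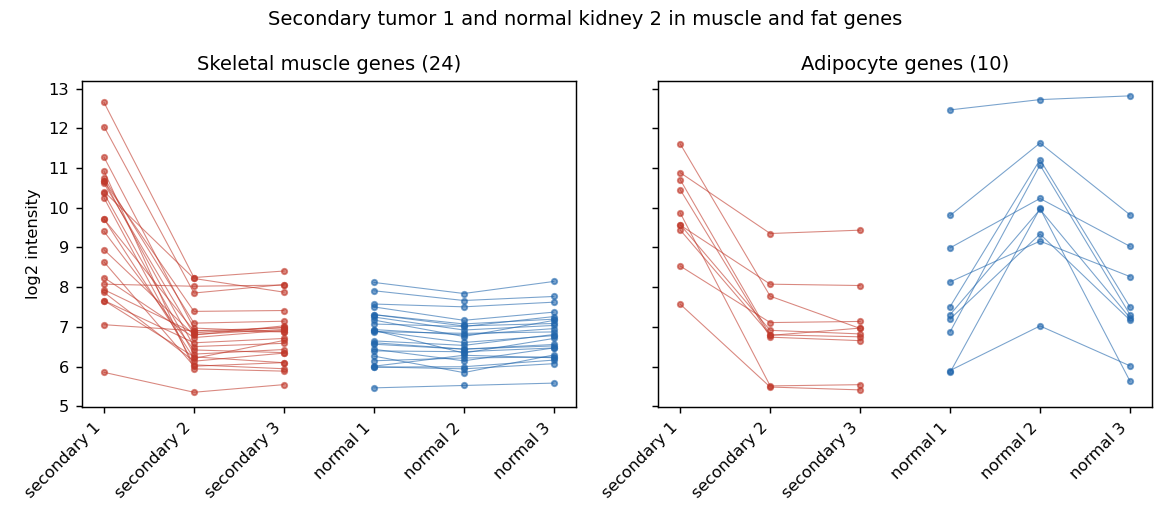
Log2 intensity of the 24 skeletal muscle genes (left) and 10 adipocyte genes (right) in each secondary tumor (red) and normal kidney (blue) array, 1 line per gene and group. The lines rise at secondary tumor 1 in both panels and at normal kidney 2 in the adipocyte panel, as with Adipoq at 9.87 and 9.98 in these arrays.

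Against normal kidney, 5962 of 19938 genes were higher in the secondary tumors and 7720 were lower, which is 29.9% and 38.7% of all genes. The counts of genes at least 2-fold higher and lower were 2778 and 2216, or 13.9% and 11.1%. The 3 arrays of the groups did not overlap in 79.6% of genes, so calls were frequent across the genome and each list is read against these shares. The median difference over all genes was -0.13, and centring each array on its median moved it to -0.35 and the calls to 4578 higher and 10774 lower. Across genes, the secondary tumors correlated with each other at 0.982 to 0.995, and a secondary tumor with a normal kidney array at 0.778 to 0.791. A refit without secondary tumor 1 and normal kidney 2, chosen after the data were seen, called 5375 genes higher and 6451 lower.

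Transcripts of kidney function fell along the whole nephron. Of 188 distinct genes in 12 kidney lists, 175 fell, 5 rose and 8 did not pass the test, against 38.7% of all genes lower, and their median difference was -4.02 against -0.13 over all genes. Without secondary tumor 1 and normal kidney 2 the counts were 173 lower and 4 higher. The list medians were lowest for detoxifying enzymes, apical transporters and metabolic enzymes of the proximal tubule. The 12 genes of largest fall in the whole comparison lay between 4.63 and 6.29 in the secondary tumors, against 12.30 to 13.87 in normal kidney. They were headed by Ugt3a2, a UDP-glycosyltransferase, and by Kap, the kidney androgen-regulated protein.

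**Figure D2:**
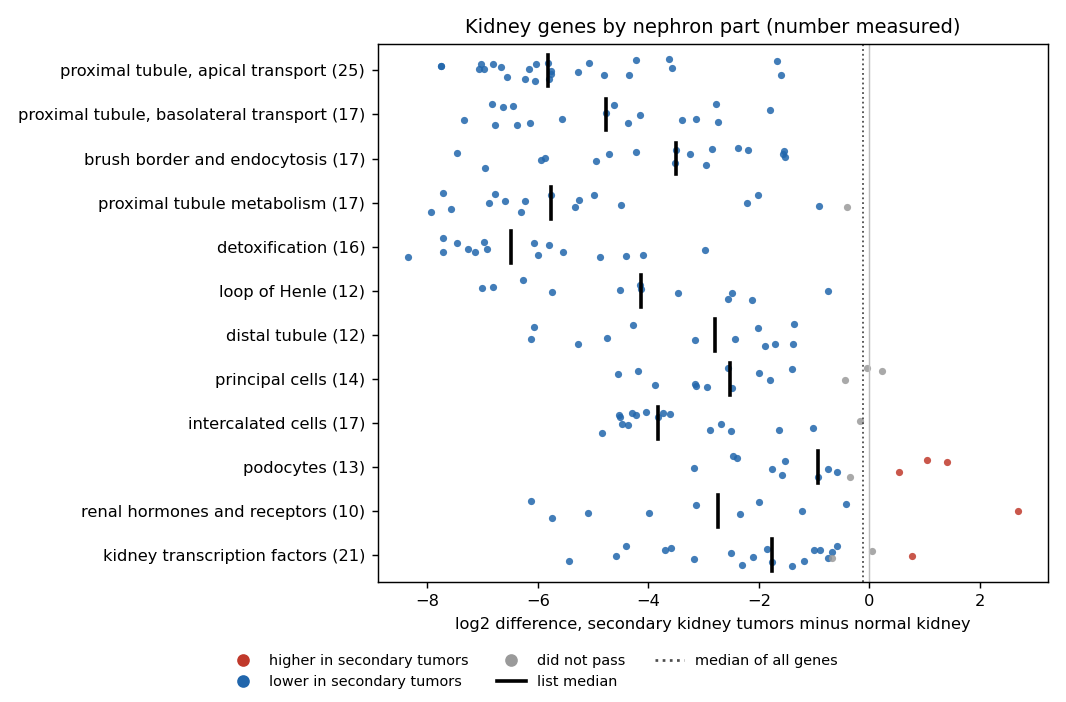
Log2 difference (secondary kidney tumors minus normal kidney) of each measured member of the 12 kidney lists, with the number of members in brackets, black bars at list medians and the dotted line at the median of all genes. Blue points fell, red points rose and grey points did not pass the test. The list medians lie from -6.50 for detoxification to -0.93 for podocytes.

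All 25 measured apical transporters of the proximal tubule fell, with a median of -5.82. Slc34a1, the sodium-phosphate cotransporter that recovers filtered phosphate, had log2 levels of 6.68, 6.75 and 6.83 in the secondary tumors, against 13.68, 13.83 and 13.70 in normal kidney. Slc5a2, the glucose transporter SGLT2, had log2 levels of 6.56, 6.70 and 6.64 in the secondary tumors, against 11.80, 12.12 and 11.80 in normal kidney. Both genes were low in every secondary tumor and the groups lay far apart. Slc34a1 fell by 6.98 ± 0.61 (SE, n = 3 each; limma adjusted p 5.29e-07), a 126-fold lower intensity, and Slc5a2 fell by 5.27 ± 0.38 (adjusted p 8.13e-08). The steepest falls of the list were those of the amino acid transporter Slc7a13, by 7.76 ± 0.89, the sulfate transporter Slc13a1, by 7.75 ± 0.42, and the lactate transporter Slc5a12, by 7.06 ± 0.55. The error of Slc7a13 pools all groups. Its SDs were 0.05 in the secondary tumors, 0.09 in normal kidney and 2.57 in the primary tumors.

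On the blood-facing side, all 17 basolateral and organic ion transporters fell, with a median of -4.76. Slc22a6, the organic anion transporter OAT1 that carries many drugs into the tubule cell, had log2 levels of 6.85, 6.78 and 6.75 in the secondary tumors, against 13.21, 13.28 and 13.24 in normal kidney. Slc22a8, the related transporter OAT3, had log2 levels of 6.54, 6.67 and 6.47 in the secondary tumors, against 12.92, 13.05 and 12.84 in normal kidney. No secondary tumor came near the normal range in either gene. Slc22a6 fell by 6.45 ± 0.45 (adjusted p 7.46e-08) and Slc22a8 by 6.38 ± 0.35 (adjusted p 9.8e-09).

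All 17 genes of the brush border and of protein uptake fell as well, with a median of -3.51. The endocytic receptors Lrp2 (megalin) and Cubn (cubilin), which take filtered protein back into the cell, fell by 4.22 ± 0.49 and 4.72 ± 0.57. Lrp2 had log2 levels of 8.92, 8.78 and 8.93 in the secondary tumors, against 13.05, 13.14 and 13.10 in normal kidney. Its level in the secondary tumors was low in each array and still above the 7.50 of the ES cell array. The brush border protease gene Mep1a fell by 7.46 ± 0.56, and Cltrn (collectrin), which helps to place amino acid transporters in the brush border, fell by 6.96 ± 0.68.

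Metabolic enzymes of the proximal tubule followed. Of 17 measured, 16 fell, with a median of -5.77, and 1, Ddc, did not pass at -0.40 ± 0.19 (adjusted p 0.0728). G6pc, glucose-6-phosphatase, which releases newly made glucose, had log2 levels of 5.33, 5.78 and 5.70 in the secondary tumors, against 13.29, 13.43 and 13.23 in normal kidney. Pck1, which catalyses an early step of glucose synthesis, had log2 levels of 8.88, 6.51 and 6.18 in the secondary tumors, against 12.96, 12.96 and 12.94 in normal kidney. The G6pc levels of the secondary tumors lay close together, while Pck1 was higher in secondary tumor 1, the array with high adipocyte genes, than in the other secondary tumors. The part of fat cells in Pck1 was not tested. G6pc fell by 7.71 ± 0.50 (adjusted p 3.68e-08), a 210-fold lower intensity, and Pck1 by 5.77 ± 0.63 (adjusted p 3.62e-06). Miox, which begins the breakdown of inositol, and Glyat, a glycine conjugating enzyme, fell by 7.57 ± 0.51 and 6.89 ± 0.29. The 16 detoxification genes all fell, with the lowest median of any list at -6.50, and the falls were 8.35 ± 0.30 for Ugt3a2, 7.72 ± 0.21 for the cytochrome P450 gene Cyp2j5 and 7.46 ± 0.46 for the acyl-CoA synthetase gene Acsm2.

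The promoters of these proximal tubule genes were searched for the binding letters of HNF1, a homeodomain factor pair of the proximal tubule and liver, written GTTAATNAT and counted on either strand from 250 bases before to 50 after the gene start (RefSeq, GRCm38.p6). Of 92 measured genes in the 5 proximal lists, 76 had a promoter in the table and 2 of them, G6pc and Cltrn, held the motif. That is 2.63%, against 0.94% of all 27025 genes and 0.801% of 15614 genes on the array. The windows are shown because both genes are among the deepest losses, with the motif in capitals and the plus strand of the genome read 5′ to 3′.
G6pc, chr11:101367466-101367533: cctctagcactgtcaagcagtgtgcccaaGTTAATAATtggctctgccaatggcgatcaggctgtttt
Cltrn, chrX:164090103-164090171: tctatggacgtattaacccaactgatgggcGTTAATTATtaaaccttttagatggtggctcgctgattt
A match is a description of letters, and nothing about the factor follows from it. The HNF1 genes themselves were not analysed here.

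In the loop of Henle, where salt is recovered without water, all 12 measured genes fell, with a median of -4.14. Umod, which encodes uromodulin, an abundant protein of urine, had log2 levels of 6.23, 6.08 and 6.28 in the secondary tumors, against 13.24, 13.13 and 13.24 in normal kidney. Slc12a1, the sodium-potassium-chloride cotransporter targeted by loop diuretics, had log2 levels of 5.72, 5.76 and 5.75 in the secondary tumors, against 12.82, 12.14 and 12.69 in normal kidney. Both stood in every secondary tumor below the ES cell array, which had 6.35 for Umod and 5.98 for Slc12a1. They fell by 7.00 ± 0.55 (adjusted p 1.78e-07) and 6.81 ± 0.44 (adjusted p 3.81e-08). The potassium channel gene Kcnj1 and the growth factor gene Egf, which is highly expressed in kidney, fell by 6.28 ± 0.34 and 5.74 ± 0.27.

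All 12 genes of the distal tubule fell, with a median of -2.80. Slc12a3, the thiazide-sensitive sodium-chloride cotransporter, had log2 levels of 6.51, 6.65 and 6.79 in the secondary tumors, against 12.82, 12.79 and 12.55 in normal kidney, a fall of 6.07 ± 0.41 (adjusted p 5.63e-08), and Kl (klotho), a co-receptor for the phosphate hormone FGF23, fell by 6.12 ± 0.35. Pvalb, the calcium buffer parvalbumin of both distal tubule and fast muscle, was the exception among arrays. It had log2 levels of 10.48, 6.96 and 6.56 in the secondary tumors, against 9.51, 10.28 and 10.28 in normal kidney, so that secondary tumor 1, the array with high muscle genes, lay above all 3 normal kidneys and the other secondary tumors far below them. The part of muscle in this was not tested. Pvalb fell by 2.03 ± 0.73 (adjusted p 0.0252), and the p was 3.31e-07 without secondary tumor 1, 0.108 without secondary tumor 2, 0.122 without secondary tumor 3, 0.0677 without normal kidney 2 and 0.0707 without normal kidney 3.

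Genes of both cell types of the collecting duct fell. Among 14 genes of principal cells, which carry out regulated water and sodium uptake, 11 fell with a list median of -2.53, and Elf5, Gata3 and Kcnj10 did not pass at 0.24, -0.05 and -0.44. Aqp2, the vasopressin-regulated water channel, had log2 levels of 7.01, 7.03 and 7.16 in the secondary tumors, against 11.29, 10.79 and 10.76 in normal kidney. Scnn1g, a subunit of the epithelial sodium channel, had log2 levels of 6.67, 6.61 and 6.53 in the secondary tumors, against 11.29, 11.12 and 11.03 in normal kidney. The groups did not overlap in either. Aqp2 fell by 3.88 ± 0.39 (adjusted p 1.57e-06) and Scnn1g by 4.55 ± 0.30 (adjusted p 4.48e-08). Among 17 genes of intercalated cells, which secrete acid and base, 16 fell, with a median of -3.84. The proton pump subunits Atp6v0a4 and Atp6v1b1 fell by 4.84 ± 0.29 and 4.04 ± 0.16, the ammonia transporter Rhcg by 4.53 ± 0.28 and the transcription factor Foxi1, which directs the intercalated cell fate, by 2.50 ± 0.21. Dmrt2 did not pass at -0.17 ± 0.20 (adjusted p 0.462).

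Podocytes had the smallest median fall of the 12 kidney lists. Of 13 podocyte genes, 9 fell, 3 rose and 1 did not pass, with a median of -0.93. Nphs1 (nephrin), a core protein of the filtration slit, had log2 levels of 6.57, 6.92 and 6.73 in the secondary tumors, against 8.22, 8.71 and 8.56 in normal kidney and fell by 1.76 ± 0.15 (adjusted p 4.36e-07). The basement membrane collagens Col4a3 and Col4a4 fell by 2.47 ± 0.15 and 2.40 ± 0.12. The phospholipase gene Plce1, the phosphatase gene Ptpro and the cell cycle inhibitor gene Cdkn1c rose by 1.41 ± 0.14, 1.04 ± 0.15 and 0.53 ± 0.17, and Ptpro and the cell cycle inhibitor are also known from other tissues. Tcf21 did not pass at -0.36. The call of Cdkn1c was lost without secondary tumor 3 (adjusted p 0.0543) and without secondary tumor 1 and normal kidney 2 (adjusted p 0.0602). Podxl (podocalyxin), which is also made by pluripotent cells, fell by 0.59 ± 0.25 (adjusted p 0.0488), and its p lay between 0.0732 and 0.121 when any 1 of the 6 arrays was left out, each time above the threshold.

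Of 10 genes for kidney hormones and vitamin D, 9 fell and 1 rose, with a median of -2.73. Cyp27b1, which makes active vitamin D, had log2 levels of 6.18, 6.22 and 6.10 in the secondary tumors, against 8.04, 8.91 and 8.57 in normal kidney, a fall of 2.34 ± 0.20 (adjusted p 5.03e-07), and Vdr, the vitamin D receptor, fell by 5.10 ± 0.30. Epo (erythropoietin) fell by 0.43 ± 0.15 (adjusted p 0.0194), and this call was lost without secondary tumor 2 (p 0.0635) or normal kidney 3 (p 0.0804). Corin, a protease that activates a natriuretic peptide, went the other way and had log2 levels of 10.98, 10.83 and 10.95 in the secondary tumors, against 8.19, 7.98 and 8.52 in normal kidney. All 3 secondary tumors were above all normal kidneys in Corin, by 2.69 ± 0.18 (adjusted p 5.3e-08).

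Of 21 kidney transcription factors, 18 fell, 1 rose and 2 did not pass, with a median of -1.76. Hnf4a, a nuclear receptor that drives the proximal tubule program, had log2 levels of 7.40, 7.44 and 7.50 in the secondary tumors, against 12.92, 12.90 and 12.83 in normal kidney. Pax8, a paired box factor of the renal lineage, had log2 levels of 7.53, 8.08 and 8.09 in the secondary tumors, against 11.68, 11.44 and 11.38 in normal kidney. The secondary tumors were low in every array for both. Hnf4a fell by 5.43 ± 0.30 (adjusted p 8.96e-09), a 43.2-fold lower intensity, and Pax8 by 3.60 ± 0.31 (adjusted p 4.03e-07). The nuclear receptors Ppara, of fatty acid oxidation, and Nr1h4, the bile acid receptor, fell by 4.58 ± 0.42 and 4.40 ± 0.38. Grhl2, an epithelial factor, rose by 0.76 ± 0.19 (adjusted p 0.00368), and Ehf and Lhx1 did not pass at 0.04 and -0.68.

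Of the 175 kidney genes that fell, 129 stood in the secondary tumors at or below their level in the ES cell array plus 0.5, and 22 did so in the primary tumors. The median over these genes of secondary tumor minus ES cells was -0.17, against 2.32 for primary tumor minus ES cells. There is 1 ES cell array, so this is a description. The cut of 0.5 was set after the values were seen, and of all 7720 genes that fell 7112 met it. The kidney genes that stayed farthest above the ES cell array were Fmo1, a flavin monooxygenase, with a mean of 10.10 in secondary tumors against 6.85 in ES cells, and Gatm, which makes the creatine precursor, with 11.19 against 8.13. Both were picked for these values.

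**Figure D3:**
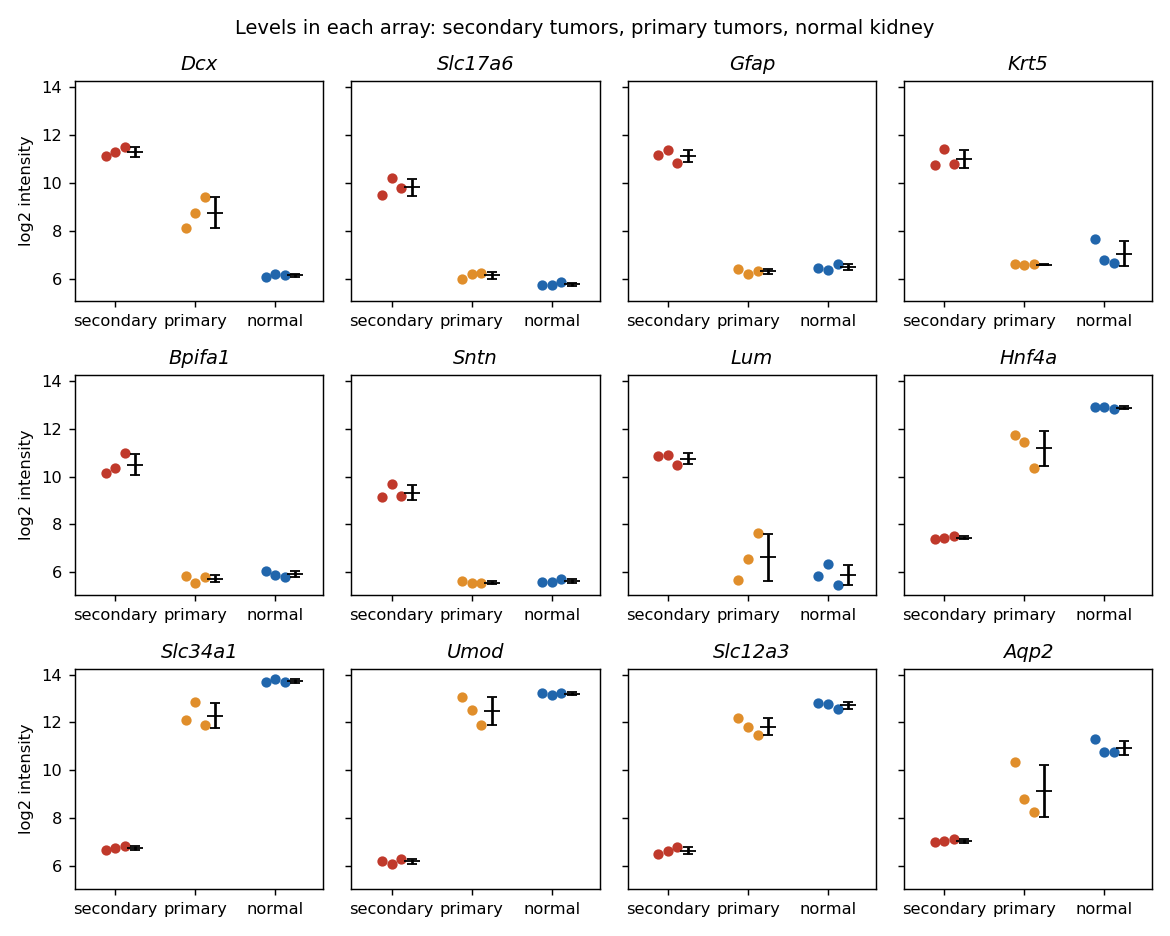
Log2 intensity of 12 genes in each secondary tumor (red), primary tumor (orange) and normal kidney (blue) array, with the mean and SD of 3 arrays as black bars. The first 7 genes, of neural, epithelial, ciliated and stromal cells, are high in the secondary tumors, and the last 5, of the nephron, are high in normal kidney and lie at or below 7.50 in each secondary tumor.

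The largest list median belonged to neurons. Of 22 measured genes of neuronal structure and synapse, 21 rose and 1 did not pass, against 29.9% of all genes higher, and the list median was 3.57. Dcx (doublecortin), a microtubule protein of young migrating neurons, had log2 levels of 11.10, 11.27 and 11.50 in the secondary tumors, against 6.07, 6.18 and 6.14 in normal kidney. Tubb3, the neuronal tubulin, had log2 levels of 10.20, 10.58 and 11.01 in the secondary tumors, against 6.48, 6.28 and 6.12 in normal kidney. Snap25, which drives synaptic vesicle fusion, had log2 levels of 11.25, 12.06 and 11.56 in the secondary tumors, against 6.91, 6.91 and 6.79 in normal kidney. Each secondary tumor was above each normal kidney by more than 3 log2 units in these genes. Dcx rose by 5.16 ± 0.27 (35.8-fold, limma adjusted p 6.73e-09), Tubb3 by 4.30 ± 0.28 (adjusted p 3.53e-08) and Snap25 by 4.75 ± 0.66 (adjusted p 3.42e-05). The neuronal intermediate filament genes Ina and Nefl rose by 5.46 ± 0.36 and 4.77 ± 0.52. Ina stood at 10.44 in the ES cell array too, against a mean of 11.91 in the secondary tumors. Over the 22 genes the ES cell array had a median level of 7.29, against 9.98, 10.46 and 10.54 in the secondary tumors. The heavy neurofilament Nefh, a mark of mature axons, was the member that did not pass, with log2 levels of 7.91, 8.51 and 8.35 in the secondary tumors, against 7.96, 7.93 and 7.93 in normal kidney (adjusted p 0.125). It passed without secondary tumor 1, at 0.49 (adjusted p 0.0242), and without secondary tumor 1 and normal kidney 2 (adjusted p 0.0494).

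The enzymes and transporters that set a neuron's transmitter were gained unevenly. Of 15 measured, 10 rose, 1 fell and 4 did not pass, with a median of 1.11. Slc17a6, the vesicular glutamate transporter VGLUT2, had log2 levels of 9.48, 10.18 and 9.77 in the secondary tumors, against 5.75, 5.72 and 5.84 in normal kidney. Gad2, which makes GABA, had log2 levels of 8.22, 8.87 and 9.30 in the secondary tumors, against 6.25, 6.06 and 6.38 in normal kidney. Tph2, which makes serotonin in the brain, had log2 levels of 8.15, 9.10 and 9.21 in the secondary tumors, against 5.82, 5.75 and 5.70 in normal kidney. All secondary tumors lay above all normal kidneys in these 3 genes. Slc17a6 rose by 4.05 ± 0.15 (adjusted p 6.3e-10), Gad2 by 2.57 ± 0.21 (adjusted p 2.38e-07) and Tph2 by 3.07 ± 0.21 (adjusted p 6.47e-08). The dopamine pathway genes Th and Slc18a2 rose by 2.10 ± 0.59 and 3.30 ± 0.58. Slc17a7, the VGLUT1 transporter of cortical neurons, fell by 0.23 ± 0.07, a call lost without secondary tumor 1 and normal kidney 2 (adjusted p 0.106). The acetylcholine enzyme Chat, the noradrenaline enzyme Dbh, Ddc and the GABA transporter Slc32a1 did not pass, at -0.07, -0.14, -0.40 and 0.31, and Slc32a1 was called higher without secondary tumor 1 (adjusted p 0.041).

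Of 24 neural progenitor and patterning factors, 20 rose, 1 fell and 3 did not pass, with a median of 1.59. Sox2, a factor of neural progenitors and of pluripotent cells, had log2 levels of 11.71, 11.73 and 11.84 in the secondary tumors, against 6.67, 6.59 and 6.05 in normal kidney and rose by 5.33 ± 0.24 (adjusted p 2.01e-09). The ES cell array stood at 11.92 for Sox2. The probe set cannot separate the mouse's own Sox2 from an introduced reprogramming factor that shares its sequence. The RNA-binding gene Msi1, active in neural stem cells, rose by 4.54 ± 0.18, and the neural factors Pax6 and Sox1 by 1.50 ± 0.25 and 0.78 ± 0.18. Emx2, a factor of both forebrain and kidney development, had log2 levels of 6.95, 6.33 and 6.91 in the secondary tumors, against 9.90, 9.67 and 9.80 in normal kidney and fell by 3.06 ± 0.21. Neurog1, Sox3 and Vax1 did not pass, at -0.05, -0.07 and -0.20, and Vax1 was called lower without secondary tumor 3 (adjusted p 0.04), which made the count of falls 2.

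Glial genes accompanied them. Of 15 astrocyte and radial glia genes, 12 rose, 2 fell and 1 did not pass, and the median was 2.04. Gfap, the astrocyte filament, had log2 levels of 11.17, 11.35 and 10.85 in the secondary tumors, against 6.45, 6.37 and 6.60 in normal kidney. Slc1a3, the glutamate transporter of radial glia and astrocytes, had log2 levels of 11.10, 11.40 and 11.45 in the secondary tumors, against 7.31, 8.39 and 7.08 in normal kidney. The Gfap groups were separated by more than 4 log2 units, and normal kidney 2 was the highest normal array in Slc1a3. Gfap rose by 4.65 ± 0.13 (25.1-fold, adjusted p 1.31e-10) and Slc1a3 by 3.72 ± 0.42 (adjusted p 4.77e-06). Ptprz1, a receptor phosphatase of radial glia, rose by 5.50 ± 0.30. The genes that fell, Aldh1l1 by 2.25 ± 0.34 and Glul by 0.94 ± 0.13, encode enzymes that kidney also makes. Aqp4, a water channel of astrocytes and of the kidney, rose by 0.89 ± 0.35 (adjusted p 0.0377), and the p was 0.141, 0.0787, 0.165 and 0.0742 without secondary tumor 2, secondary tumor 3, normal kidney 2 and normal kidney 3, and 0.0786 without secondary tumor 1 and normal kidney 2.

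Genes of myelinating glia had a lower median. Of 17 genes, 9 rose, 4 fell and 4 did not pass, and the median was 0.47. Olig2 and Olig1, factors of the oligodendrocyte lineage, rose by 2.62 ± 0.21 and 2.61 ± 0.22. Mbp, myelin basic protein, had log2 levels of 8.58, 8.49 and 8.81 in the secondary tumors, against 7.98, 7.71 and 7.72 in normal kidney and rose by 0.83 ± 0.12 (adjusted p 5.11e-05), and Sox10 rose by 0.74 ± 0.11. The largest falls, Enpp6 by 3.80 ± 0.43 and Ugt8a by 3.05 ± 0.55, were of genes with a high level in normal kidney, at means of 11.73 ± 0.18 and 11.68 ± 0.10 (SD, n = 3).

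Of 10 genes of neuroendocrine secretory granules, 9 rose, with a median of 2.36. Chga (chromogranin A) had log2 levels of 9.97, 10.67 and 10.52 in the secondary tumors, against 7.25, 7.02 and 7.05 in normal kidney, a rise of 3.28 ± 0.43 (adjusted p 1.97e-05), and the granule protein gene Chgb rose by 3.97 ± 0.18. Cpe, a peptide processing enzyme, did not pass at 1.48 ± 0.66 (adjusted p 0.0634).

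**Figure D4:**
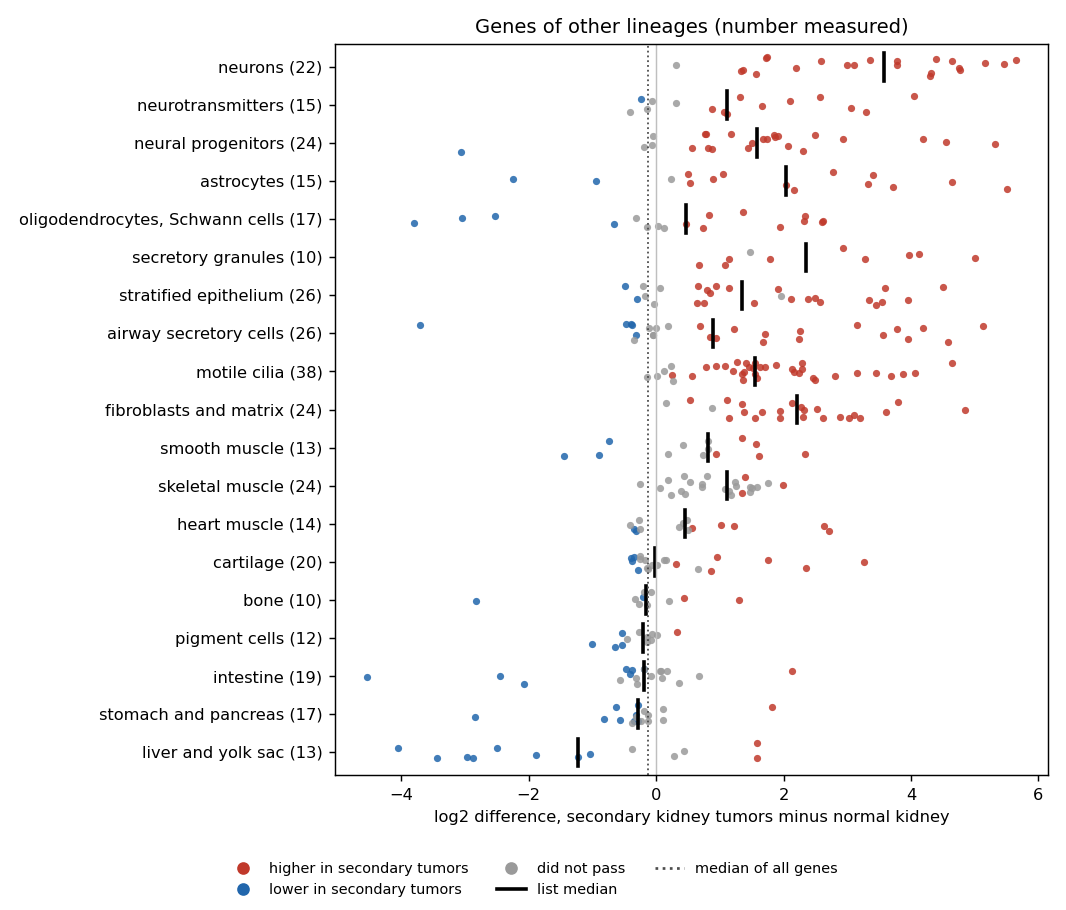
Log2 difference (secondary kidney tumors minus normal kidney) of each measured member of 19 lineage lists, with the number of members in brackets, black bars at list medians and the dotted line at the median of all genes. Red points rose, blue points fell and grey points did not pass the test. The list medians run from 3.57 for neurons to -1.23 for liver and yolk sac.

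Genes of epithelia that line other organs also rose. Of 26 genes of stratified epithelium, the layered lining of skin and mouth, 19 rose, 2 fell and 5 did not pass, and the median was 1.34. Krt5, a keratin of the basal layer, had log2 levels of 10.75, 11.41 and 10.77 in the secondary tumors, against 7.63, 6.79 and 6.67 in normal kidney. Krt4, a keratin of moist lining such as the esophagus, had log2 levels of 10.60, 11.57 and 10.51 in the secondary tumors, against 6.57, 6.22 and 6.38 in normal kidney. Secondary tumor 2 was the highest in both, and 20 of the 26 genes were highest in it among the 3 secondary tumors. The 2 falls, named here for going against their list, were those of the keratin gene Krt10 and of Ivl (involucrin). The count of falls was 1 without secondary tumor 2 or 3 and 0 without secondary tumor 1 or any 1 of the normal kidneys. Without secondary tumor 1 the adjusted p was 0.247 for Krt10 and 0.0808 for Ivl. Krt16, Sprr1a, Sprr1b, Perp and Lgals7 did not pass, and Sprr1a was called higher without secondary tumor 1 (adjusted p 0.0462). Krt5 rose by 3.95 ± 0.22 (15.4-fold, adjusted p 1.01e-08) and Krt4 by 4.50 ± 0.21 (adjusted p 3.03e-09). Trp63, the basal cell regulator p63, and the basal keratin gene Krt14 rose by 1.14 ± 0.15 and 1.92 ± 0.18. Sprr3, a cornified envelope gene, was chosen after its values were seen for its spread, with 7.65, 9.91 and 8.16 in the secondary tumors, against 5.97, 5.90 and 6.15 in normal kidney.

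Of 26 genes of airway and mucosal secretory epithelium, 15 rose, 5 fell and 6 did not pass, and the median was 0.89. Bpifa1, a defence protein of the upper airways, had log2 levels of 10.14, 10.36 and 10.99 in the secondary tumors, against 6.05, 5.91 and 5.80 in normal kidney. Reg3g, an antibacterial lectin, had log2 levels of 10.50, 10.98 and 10.13 in the secondary tumors, against 5.61, 5.32 and 5.29 in normal kidney. Muc5b, a gel-forming mucin, had log2 levels of 10.13, 10.14 and 8.96 in the secondary tumors, against 6.54, 6.49 and 6.76 in normal kidney, lower in secondary tumor 3 than in the other secondary tumors. They rose by 4.58 ± 0.29 (adjusted p 2.83e-08), 5.13 ± 0.16 (adjusted p 2.25e-10) and 3.15 ± 0.24 (adjusted p 1.5e-07). The genes that fell, named here for going against their list, were Pigr, Bpifb4 and the surfactant genes Sftpa1, Sftpb and Sftpd. Pigr had the largest fall, at -3.70, and the surfactant gene Sftpc rose. The count of falls was 3 without normal kidney 3, and also without secondary tumor 1 and normal kidney 2. In the latter refit Sftpa1 (adjusted p 0.0528) and Sftpd (adjusted p 0.0532) were not called. Sftpa1 was also not called without secondary tumor 1 alone (adjusted p 0.0775). Foxa1, a pioneer factor of endoderm, rose by 4.19 ± 0.25. Scgb1a1, the defining secretoglobin of club cells, lay at 4.86, 4.89 and 4.81 in the secondary tumors, against 4.88, 4.87 and 4.78 in normal kidney. It is near the low end of the array in all 6 and did not pass (adjusted p 0.956). Scgb3a2, Spdef, Muc1, Nkx2-1 and Aqp5 did not pass either.

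Motile cilia, the beating hairs of airway and brain ventricle lining, gave an even gain across the 3 tumors. Of 38 genes, 33 rose and 5 did not pass, with a median of 1.56, and the medians of the members relative to normal kidney were 1.59, 1.53 and 1.56 in secondary tumors 1, 2 and 3. Foxj1, the master factor of motile cilia, had log2 levels of 8.15, 8.29 and 8.31 in the secondary tumors, against 6.79, 6.71 and 6.66 in normal kidney and rose by 1.53 ± 0.08 (adjusted p 5.45e-09). Sntn (sentan), a protein of the ciliary tip, had log2 levels of 9.13, 9.69 and 9.17 in the secondary tumors, against 5.61, 5.59 and 5.71 in normal kidney. Rsph4a, of the radial spoke head, had log2 levels of 10.02, 10.17 and 10.09 in the secondary tumors, against 6.14, 6.28 and 6.22 in normal kidney. The groups did not overlap in these 3 genes. Sntn rose by 3.69 ± 0.13 (12.9-fold, adjusted p 3.61e-10) and Rsph4a by 3.88 ± 0.32 (adjusted p 3.02e-07), and the dynein genes Dnah5 and Dnaic1 rose by 1.59 ± 0.12 and 1.26 ± 0.07. Foxn4, Rsph9, Drc1, Zmynd10 and Spag6 did not pass, at 0.26, 0.23, 0.12, 0.01 and -0.14.

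RFX factors bind the X-box, a motif known from promoters of ciliary genes, searched here as GTTGCCNNG on either strand over the same 300 bases of promoter. Of the 38 measured motile cilia genes 33 had a promoter in the table, and 17 of these held it. That is 51.5%, against 5.74% of all 27025 genes and 6.02% of 15614 genes on the array. The letters did not sort the members by their change, since 14 of 17 with the motif rose and 14 of 16 without it rose. Windows are shown for Sntn and for Dynlrb2, a dynein light chain gene that was chosen after its values were seen, both of which rose, and for Drc1 and Spag6, which did not pass. The X-box is in capitals, on the strand of the gene, all 4 genes lying on the plus strand of GRCm38.p6 and read 5′ to 3′.
Sntn, chr14:13670780-13670848: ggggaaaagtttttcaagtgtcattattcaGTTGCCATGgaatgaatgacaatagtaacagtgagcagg
Dynlrb2, chr8:116504934-116505002: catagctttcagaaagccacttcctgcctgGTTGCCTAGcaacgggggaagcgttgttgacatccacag
Drc1, chr5:30281349-30281392: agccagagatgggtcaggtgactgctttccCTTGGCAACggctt
Spag6, chr2:18698955-18699021: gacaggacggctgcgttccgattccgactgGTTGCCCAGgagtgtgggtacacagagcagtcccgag
In Drc1 the capitals hold the reverse complement of the motif, and in the other 3 its forward letters. Dynlrb2 had log2 levels of 9.14, 9.57 and 9.55 in the secondary tumors, against 5.95, 5.87 and 6.06 in normal kidney and rose by 3.46 ± 0.12 (adjusted p 3.02e-10), while Spag6 lay at 6.38, 6.52 and 6.52 in the secondary tumors, against 6.76, 6.40 and 6.69 in normal kidney.

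Connective tissue genes rose together. Of 24 genes of fibroblasts and interstitial matrix, 22 rose and 2, Ogn and Pdgfrb, did not pass, with a median of 2.21. Lum (lumican), which organises collagen fibrils, had log2 levels of 10.87, 10.89 and 10.48 in the secondary tumors, against 5.85, 6.34 and 5.49 in normal kidney. Col1a1, the main chain of type I collagen, had log2 levels of 12.13, 12.09 and 11.65 in the secondary tumors, against 8.57, 9.03 and 8.94 in normal kidney. The secondary tumors were above normal kidney in every array for both. Lum rose by 4.85 ± 0.52 (adjusted p 2.96e-06) and Col1a1 by 3.11 ± 0.39 (adjusted p 1.38e-05), and the matrix protein Postn and the collagen cross-linking enzyme Lox rose by 3.80 ± 0.70 and 3.61 ± 0.44. Host connective tissue and tumor stroma could not be told apart. The ES cell array was also high in this list, with a median level of 9.60 over the same 24 genes. The medians were 10.40, 10.20 and 9.91 in the secondary tumors and 7.88, 8.19 and 8.07 in normal kidney.

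Muscle and skeletal lists lay near the background of 29.9% of all genes higher, and no gain of these lineages is read from their counts. Of 13 smooth muscle genes 5 rose and 3 fell, of 14 heart muscle genes 5 rose and 2 fell, of 20 cartilage genes 6 rose and 4 fell, and of 10 bone genes 2 rose and 2 fell. Leaving out secondary tumor 2 brought the smooth muscle count to 3, and the refit without secondary tumor 1 and normal kidney 2 brought it to 2. The heart muscle count of rises was 3 without secondary tumor 1, secondary tumor 2 or any 1 of the normal kidney arrays, and its count of falls was 1 without normal kidney 2. The count of falls was 2 for cartilage and 1 for bone without normal kidney 3, and 1 for bone without secondary tumor 2. Sox9, a factor of cartilage and of several progenitor cells, had log2 levels of 10.99, 11.11 and 11.21 in the secondary tumors, against 8.11, 7.34 and 8.07 in normal kidney and rose by 3.26 ± 0.25 (adjusted p 1.45e-07), and the cartilage matrix gene Col2a1 rose by 0.87 ± 0.13, while Acan, the cartilage aggrecan, did not pass at 0.15. In smooth muscle, Acta2 rose by 1.62 ± 0.53 (adjusted p 0.0163, 0.0539 without secondary tumor 2 and 0.072 without secondary tumor 1 and normal kidney 2), and Myh11, a defining myosin of the mature cell, did not pass at 0.19. Tbx20, a heart factor, rose by 2.72 ± 0.39, and the defining heart genes Tnnt2 and Myh6 did not pass, at 0.42 and -0.27, while Nkx2-5 fell by 0.31 ± 0.09. The skeletal muscle factors Myod1 and Myog were highest in secondary tumor 1, and neither passed, at 0.19 and 0.40. The embryonic muscle and neural crest factor Pax3 rose by 1.40 ± 0.22 (adjusted p 9.85e-05) and was level across the secondary tumors, at 8.08, 8.02 and 8.05.

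Few genes of pigment, gut and liver lineages rose. Of 12 pigment genes 1 rose and 4 fell, and of 19 intestinal genes 1 rose and 7 fell. Of 17 stomach and pancreas genes 1 rose and 8 fell, and of 13 liver and yolk sac genes 2 rose and 8 fell. The background shares are 29.9% for rises and 38.7% for falls. Falls in the pigment, intestine, and stomach and pancreas lists lie near their background, and no loss of these lineages is read from them. The stomach and pancreas count of falls was 5 without normal kidney 3, and its count of rises was 2 without secondary tumor 1. The rises became 0 in pigment without normal kidney 1, normal kidney 2 or secondary tumor 3, 2 in intestine without secondary tumor 3, and 1 in liver and yolk sac without secondary tumor 1, normal kidney 1 or normal kidney 3. The defining pigment genes Tyr, Tyrp1 and Dct did not pass, at -0.09, -0.06 and -0.27. Several large falls in these lists were of genes with high levels in normal kidney. Vil1 (villin), a brush border protein of gut and kidney, had log2 levels of 6.94, 6.99 and 6.63 in the secondary tumors, against 11.47, 11.32 and 11.37 in normal kidney and fell by 4.53 ± 0.46 (adjusted p 2.07e-06), and the apolipoprotein gene Apom fell by 4.05 ± 0.18. Among the exceptions, the hormone gene Sst (somatostatin), also made by neurons, rose by 1.83 ± 0.24, the stem cell receptor gene Lgr5 by 2.13 ± 0.23 and the plasma protein gene Apoa1 by 1.58 ± 0.15. Afp, the defining fetal liver and yolk sac protein, did not pass at 0.27 ± 0.40, and Alb (albumin) fell by 2.87 ± 0.35.

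Cell cycle genes were high in all 3 secondary tumors. All 21 measured rose, with a median of 2.64. Mki67, the proliferation marker Ki-67, had log2 levels of 11.47, 11.14 and 11.29 in the secondary tumors, against 6.96, 7.30 and 7.16 in normal kidney and rose by 4.16 ± 0.23 (adjusted p 9.55e-09), and Top2a rose by 4.50 ± 0.27. Among the pluripotency genes, the count was 16 higher and 2 lower of 27, with a median of 0.74. Nanog had log2 levels of 9.04, 10.08 and 9.49 in the secondary tumors, against 7.29, 7.18 and 7.35 in normal kidney, and 12.93 in the ES cell array. Pou5f1 (Oct4), for which an introduced factor again cannot be separated, had log2 levels of 8.25, 9.19 and 8.94 in the secondary tumors, against 6.45, 6.47 and 6.69 in normal kidney, and 12.33 in the ES cell array. Both lay above normal kidney in each secondary tumor and more than 2 log2 units below ES cells. Nanog rose by 2.26 ± 0.27 (adjusted p 9.56e-06) and Pou5f1 by 2.26 ± 0.42 (adjusted p 0.000439), while Zfp42, a marker of the naive state, did not pass at 0.28 (adjusted p 0.0275 without secondary tumor 1) and Tfcp2l1, shared with the distal nephron, fell by 3.69 ± 0.34.

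Of 22 nephron progenitor and ureteric bud genes, 8 rose, 6 fell and 8 did not pass, and the median was 0.24. Over all genes 29.9% were higher and 38.7% lower. The share of rises lies near that background, and no gain of nephron progenitors is read from these counts. Eya1, a cofactor of nephron progenitors and of sensory placodes, rose by 3.13 ± 0.30, and Ret, the GDNF receptor of ureteric bud and of neurons, had log2 levels of 9.24, 9.69 and 9.18 in the secondary tumors, against 7.07, 6.82 and 7.00 in normal kidney and rose by 2.41 ± 0.24 (adjusted p 1.85e-06). Pax2 fell by 1.76 ± 0.17. Six2, the defining progenitor factor, rose by 0.42 ± 0.16 (adjusted p 0.03), a call lost without secondary tumor 1 (0.0949), secondary tumor 2 (0.0712) or normal kidney 2 (0.114).

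Among cells that surround a graft, macrophage genes rose. Of 16, 13 rose and 3 did not pass, with a median of 1.88, and 15 of the 16 were highest in secondary tumor 1. Adgre1, which encodes the macrophage marker F4/80, had log2 levels of 10.14, 9.77 and 9.33 in the secondary tumors, against 7.41, 7.64 and 7.72 in normal kidney and rose by 2.16 ± 0.32 (adjusted p 6.34e-05), and the complement gene C1qb rose by 2.57 ± 0.18. Without secondary tumor 1 and normal kidney 2, 12 of the 16 rose and Csf1r, a growth factor receptor of macrophages, fell by 0.61 (adjusted p 0.0378), against -0.20 ± 0.24 with all arrays, where it did not pass. The macrophage list was also raised in the primary tumors. Its medians relative to normal kidney were 1.14, 1.78 and 1.84 in primary tumors 1, 2 and 3, against 2.47, 1.88 and 1.42 in secondary tumors 1, 2 and 3. Of 15 endothelial genes 11 fell and 4 did not pass, and Kdr, the main VEGF receptor, fell by 1.70 ± 0.26, while Cdh5, the defining junction protein, did not pass at 0.62 ± 0.27. Without secondary tumor 1 Cdh5 was called higher, at 0.86 (adjusted p 0.0162), against the fall of its list, and also without secondary tumor 1 and normal kidney 2 (adjusted p 0.0299). The endothelial list was lower in the primary tumors too, with medians of -0.66, -0.50 and -0.96, against -1.22, -0.81 and -0.95 in the secondary tumors. Lymphocyte genes were lower in 5 of 10 for T cells, 6 of 8 for B cells and 3 of 7 for natural killer cells, against 38.7% of all genes, so that the T and natural killer cell shares lie near that background, and none was higher. The list medians were -0.31, -0.54 and -0.20. The B cell count was 2 without secondary tumor 1 and normal kidney 2. The T cell count was 3 without secondary tumor 1 or 2 and 2 without secondary tumor 3 or normal kidney 3. The natural killer cell count was 0 without secondary tumor 1 and 1 without normal kidney 1, 2 or 3. Of 9 neutrophil genes 2 fell and 1 rose, and the counts were 1 and 0 without secondary tumor 1 and normal kidney 2, with 0 rises also without either of them alone. Of 8 erythroid genes 2 fell. Of the 10 adipocyte genes 2 fell, and the count was 4 without secondary tumor 1 and 1 without secondary tumor 2, secondary tumor 3, normal kidney 2 or normal kidney 3.

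The secondary tumors were then set against the primary kidney tumors, to show which of these changes went beyond those of the primary tumor. In limma 3693 genes were higher and 3475 lower, 18.5% and 17.4% of all genes. Both comparisons use the same 3 secondary tumor arrays. Across genes, a primary tumor correlated with a normal kidney array at 0.866 to 0.931, against 0.778 to 0.791 for the secondary tumors. A primary kidney tumor can hold normal kidney tissue, and its part in the differences below was not tested. The female transcript Xist, silent in male cells, was high in 2 of the primary tumors, numbers 2 and 3, and low in all secondary tumors and normal kidneys. The mean level of 3 Y-linked genes was 9.42, 8.74 and 7.67 in primary tumors 1, 2 and 3. It was 9.37, 9.13 and 9.32 in secondary tumors 1, 2 and 3. Whether primary tumors 2 and 3 mixed male and female cells was not tested. A refit without these 2 primary tumors, chosen after the data were seen, called 3033 genes higher and 2677 lower.

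Kidney genes fell further. Of the 188 kidney genes, 145 were lower than in primary tumors and 7 were higher, against 17.4% and 18.5% of all genes. The counts were 151 and 4 without primary tumors 2 and 3. Among apical transporters of the proximal tubule 24 of 25 were lower than in primary tumors, with a median of -3.94. Umod stood at 6.23, 6.08 and 6.28 in the secondary tumors, against 13.05, 12.54 and 11.88 in the primary tumors, a difference of -6.29 ± 0.55 (adjusted p 1.41e-06). Hnf4a stood at 7.40, 7.44 and 7.50 against 11.74, 11.45 and 10.35 in the primary tumors, a difference of -3.73 ± 0.30 (adjusted p 6.69e-07). The primary tumors lay between the secondary tumors and normal kidney in both genes. Slc7a13 was uneven among the primary tumors, at 10.35, 6.46 and 5.49, and did not pass at -2.17 ± 0.89 (adjusted p 0.0749), though it did without primary tumor 3, at -3.14 (adjusted p 0.0103).

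Several differentiated lineages were gained beyond the primary tumor. Higher were 20 of 22 neuronal genes, 12 of 15 astrocyte genes, 21 of 26 genes of stratified epithelium, 14 of 26 airway genes, 36 of 38 motile cilia genes and 20 of 24 fibroblast and matrix genes, against 18.5% of all genes. Without primary tumors 2 and 3 these counts were 20, 11, 17, 12, 36 and 18. Slc17a6 stood at 9.48, 10.18 and 9.77 in the secondary tumors, against 5.97, 6.18 and 6.25 in the primary tumors. Sntn stood at 9.13, 9.69 and 9.17, against 5.65, 5.54 and 5.54 in the primary tumors. The primary tumors lay within 0.5 of the normal kidney mean in both genes. Slc17a6 was higher by 3.68 ± 0.15 (adjusted p 2.01e-09) and Sntn by 3.75 ± 0.13 (adjusted p 4.61e-10). Dcx was already raised in the primary tumors, at 8.10, 8.75 and 9.40, and was higher still in the secondary tumors by 2.54 ± 0.27 (adjusted p 1.05e-05).

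The list medians of cell cycle and neural progenitor genes differed less between the 2 kinds of tumor than those of the lineages above. Over all genes 18.5% were higher and 17.4% lower in the secondary tumors. Of 21 cell cycle genes none was higher and 2 were lower in the secondary tumors, with a median of -0.36, and the count of lower genes was 10 without primary tumor 1. Mki67 stood at 11.47, 11.14 and 11.29 in the secondary tumors, against 10.83, 11.47 and 11.47 in the primary tumors (adjusted p 0.884). Of 24 neural progenitor genes 8 were higher and 4 lower, with a median of 0.22, and 10 and 1 without primary tumors 2 and 3. Of 27 pluripotency genes 6 were higher, 8 lower and 13 not called, with a median of -0.13, and without primary tumors 2 and 3 the counts were 2 higher and 6 lower. The share of lower neural progenitor genes and that of higher pluripotency genes lie near those of all genes, and nothing is read from them. Sall4, 1 of the 8 lower genes, stood at 9.82, 9.66 and 9.71 in the secondary tumors, against 11.22, 11.28 and 11.55 in the primary tumors, a difference of -1.62 ± 0.15 (adjusted p 3.48e-06). A difference that did not pass is not shown to be absent.

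**Figure D5:**
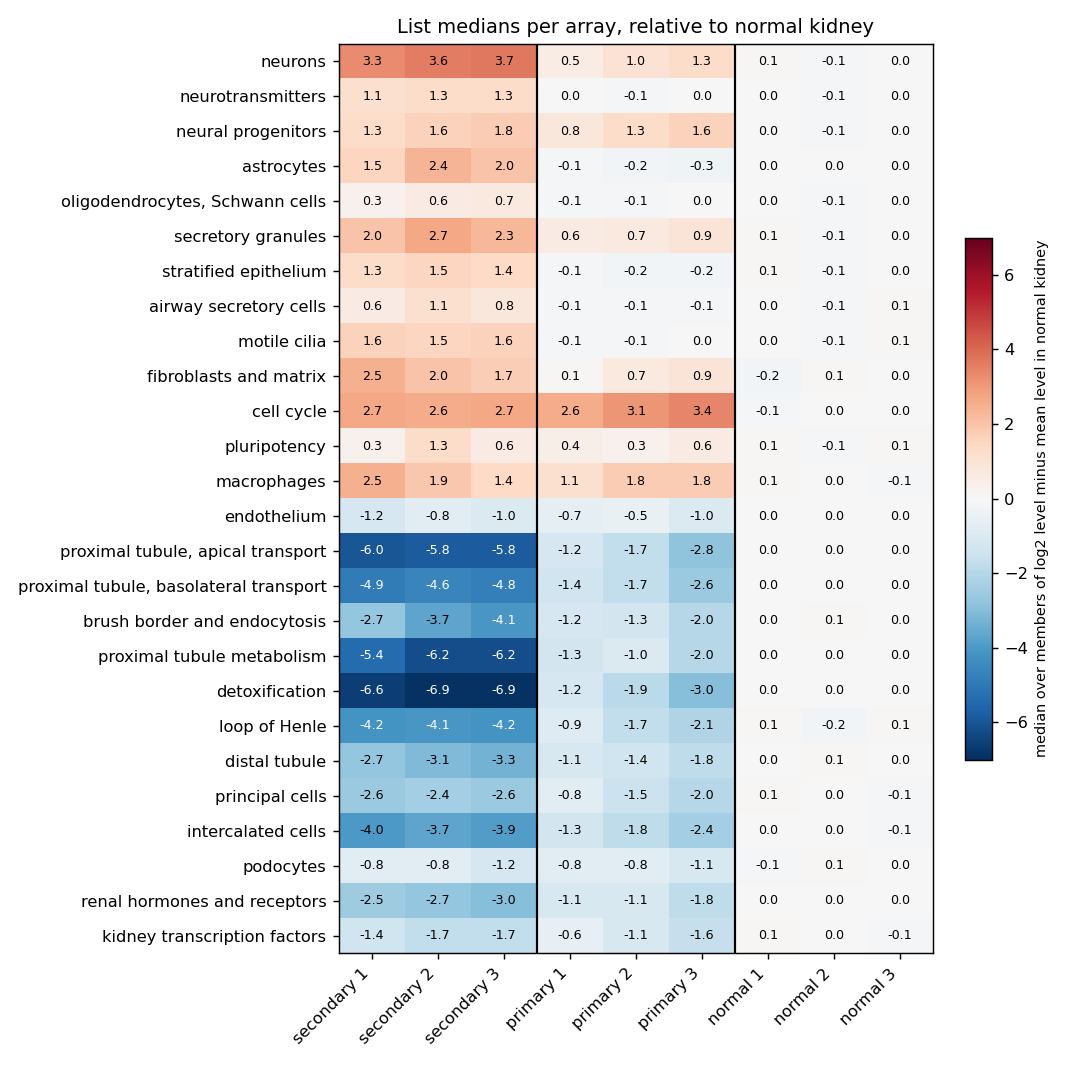
Median over the members of each list of the log2 level minus the gene's mean in normal kidney, in the 3 secondary tumors (left), 3 primary tumors (middle) and 3 normal kidneys (right), on a colour scale from -7 to 7. The neuronal row reads 3.3 to 3.7 in the secondary and 0.5 to 1.3 in the primary tumors, and the apical proximal tubule row reads -6.0 to -5.8 in the secondary and -2.8 to -1.2 in the primary tumors.

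The 3 secondary tumors differed in the levels of some gained lineages and in the depth of some kidney losses. Among the apical transporters of the proximal tubule, the medians relative to normal kidney were -6.02, -5.84 and -5.82 in secondary tumors 1, 2 and 3. The medians lay further apart for the brush border, at -2.68, -3.72 and -4.08, and for proximal tubule metabolism, at -5.41, -6.24 and -6.22. Secondary tumor 1 had the highest level of 10 of 17 brush border genes. Secondary tumor 2 had the highest level of 20 of 26 stratified epithelium genes, 17 of 26 airway genes and 18 of 27 pluripotency genes. Secondary tumor 3 had the highest level of 20 of 24 neural progenitor genes and 14 of 22 neuronal genes. Secondary tumor 1 had the highest level of 15 of 24 fibroblast and matrix genes, 15 of 16 macrophage genes and 15 of 21 cell cycle genes. The cell cycle medians relative to normal kidney lay close together all the same, at 2.69, 2.57 and 2.68 in secondary tumors 1, 2 and 3. In the same order they were 1.25, 1.48 and 1.37 for stratified epithelium and 0.64, 1.13 and 0.78 for airway genes. They were 0.27, 1.29 and 0.60 for pluripotency, 1.28, 1.62 and 1.79 for neural progenitor and 3.31, 3.60 and 3.70 for neuronal genes. A count of highest levels does not give the size of a difference. The share of all genes highest in each secondary tumor was not counted. Dppa5a, a pluripotency gene chosen after its values were seen for its spread, stood at 7.34, 9.47 and 8.47 in the secondary tumors, against 6.40, 5.96 and 6.40 in normal kidney. With 1 array for each tumor these differences between tumors have no replicate, and they are given as values with no test.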

How the data were processed

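Total RNA of 16 samples was measured, 1 array per sample. Per the labels, RNeasy Plus Mini kits gave the RNA, which was labelled by the Affymetrix WT Terminal Labeling protocol. The authors deposited linear intensities per probe set, how they corrected background and scaled the arrays was not stated in the sources used here, and mm9 is listed in the submitters' processing notes. Values were log2-transformed and not rescaled. Probe sets with exactly 1 symbol (21789 of 28856) were kept, and per gene the one of highest mean over all 16 arrays, which left 19938 genes.

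Groups were fitted with limma 3.58.1 in R 4.3.3, 1 coefficient per group over all 16 arrays (10 residual and 2.66 prior degrees of freedom), with Benjamini-Hochberg adjustment over all genes, 2-sided. Errors beside differences are SEs of that fit. Precision is limited by having 3 arrays a group.

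Of 761 list entries 707 had a probe set, and a gene can stand in several lists. Gene lists, members and tests were chosen with earlier results of these data known, so counts are descriptions. Genes were named by a rule: per list the 4 called members of largest difference, the defining members and those against the list where 5 or fewer, the 8 members that varied most among the secondary tumors, and over all genes the 12 largest in each direction that did not overlap, predicted models, olfactory and small RNA genes aside. The text shows a part of them. Promoters are RefSeq's, matched by symbol. Alternatives were other scalings, filters, probe set choices and model settings, and leaving out arrays. Replicate numbers did not pair the arrays: same-numbered secondary tumors and normal kidneys had deviations that correlated at -0.10, -0.16 and 0.15.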

Additional observations from a re-analysis of the deposited data

How the results depend on the processing

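The 13682 genes called against normal kidney became 12579 to 15830 under other scalings, probe set choices and model settings, 9663 without the dimmest genes (the lowest 33.3% by mean level), where fewer genes are tested, and 12251 to 13000 with 1 array left out. With the replicate number as a block, which does not pair these arrays, the count was 13551, 580 of 598 gene results kept their side of the threshold, and 1 adipocyte gene was called lower. The 7168 genes called against the primary tumors became 7016 with that block and 5733 to 6642 with 1 array left out. Centring each array on its median gave 29.8% higher among the genes called against normal kidney in place of 43.6%, and 38.9% in place of 51.5% against the primary tumors. The number of falls in each kidney list moved by 1.5 times or less in every setting run, and so did the neuron, astrocyte, neural progenitor and fibroblast lists. For each other list the count in its main direction is given where it moved by more, and why was not tested except where fewer genes or arrays entered; counts in the other direction that moved when 1 array was left out stand beside the results. With only the compared groups fitted, the genes called lower were 1 adipocyte, 7 erythroid, 11 intestine and 7 neutrophil genes, and those called higher were 1 skeletal and 8 smooth muscle genes. With quantile normalization 1 natural killer and 3 T cell genes were lower. With centring, 5 erythroid, 4 neutrophil, 10 pigment, 14 stomach and pancreas and 8 T cell genes were lower, and 1 bone and 1 skeletal muscle gene were higher. With log2(intensity + 50), 1 adipocyte and 0 natural killer genes were lower and 1 skeletal muscle gene was higher. With array weights, 4 adipocyte, 4 erythroid, 6 neutrophil and 7 pigment genes were lower, and 1 skeletal and 8 smooth muscle genes were higher. Without the dimmest genes, the members left were 13 of 16 motile cilia, 10 of 13 stratified epithelium, 4 of 8 airway, 6 of 7 transmitter, 4 of 5 neuroendocrine and 0 of 3 bone genes higher, and 3 of 3 B cell, 0 of 2 erythroid, 4 of 8 intestine, 1 of 1 pigment, 3 of 5 stomach and pancreas and 1 of 1 T cell genes lower, with 0 neutrophil and 0 natural killer genes left. Without secondary tumor 1 and normal kidney 2, which was chosen after seeing the data, 2 B cell, 1 neutrophil, 0 natural killer and 3 T cell genes were lower, and 3 heart and 2 smooth muscle genes were higher. With 1 array left out, the counts ranged over 1 to 4 adipocyte, 3 to 4 heart muscle, 0 to 2 natural killer, 1 to 12 skeletal muscle, 3 to 5 smooth muscle, 5 to 8 stomach and pancreas and 2 to 4 T cell genes. Among gene results called in at least 1 of the fits compared, 1 turned direction, that of Ugt8a against the primary tumors, which ranged from -0.54 to 0.89 with 1 array left out and was 0.89 (adjusted p 0.00686) without primary tumor 1. Results called in neither fit changed sign more often, 29 of them without secondary tumor 1, 21 with centring and 13 with quantile normalization. The low end of the arrays limits what a level near background can show, and 3 arrays a group limit every error given.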

Other observations

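Over all genes, the 12 largest rises were headed by Kcnma1, a calcium-activated potassium channel, with log2 levels of 13.41, 13.56 and 13.37 in the secondary tumors, against 6.60, 6.96 and 6.74 in normal kidney. It rose by 6.68 ± 0.21 (103-fold, adjusted p 2.76e-10). This rests on the annotation of its probe set to Kcnma1, which was not checked. Among these 12 were Peg10, Nnat, Zdbf2 and Mest, which are known as imprinted genes read from the paternal copy. Peg10 had log2 levels of 13.12, 13.11 and 13.08 in the secondary tumors, against 7.72, 6.86 and 7.01 in normal kidney and rose by 5.90 ± 0.50, and Mest had log2 levels of 12.20, 12.29 and 12.28 in the secondary tumors, against 6.89, 7.26 and 6.95 in normal kidney and rose by 5.23 ± 0.24. All 4 were high in the primary tumors too, with means of 12.67 ± 0.03, 12.23 ± 0.16, 10.45 ± 0.35 and 11.47 ± 0.59 (SD, n = 3) for Peg10, Nnat, Zdbf2 and Mest. The others were the neuronal genes Stmn2 and Ina, the neural genes Sox2 and Ptprz1, the proteoglycan gene Vcan, the glutamate receptor partner gene Neto2 and Fam171b. The ES cell array stood at 12.17 for Stmn2, 10.44 for Ina and 11.92 for Sox2, against means of 12.58, 11.91 and 11.76 in the secondary tumors. These genes are thus not particular to differentiated neural cells. For Ptprz1 it stood at 6.42, against a mean of 10.90.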
